A study of Mus musculus with 3 samples.

Results

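Prokr2, Tshz1, Foxp2, Meis2, Pbx3, Pax6, Etv1, Runx1t1, Synpr and Bcl11b are 10 genes used to describe subtypes and maturation of olfactory bulb interneurons. They were taken by symbol from the gene table, in which each had 1 row, so the 10 genes are all of the set and are 10 of 27998 genes listed. All 10 had UMIs (unique molecular identifiers, each standing for 1 captured transcript) in each of the 2 tdTomato-negative libraries, and all 10 passed the filter on low counts. The values come from single cells of the subventricular zone (SVZ), the lining of the lateral ventricle, of 5 adult mice that carried αSMACreERT2 with a Rosa26 tdTomato reporter and a Sox2 allele that expresses GFP, on a mixed background of C57/Bl6(3/4) and 129S1SvlmJ(1/4). The 2 tdTomato-negative libraries held GFP-positive cells (1200 sorted for library 1 and 6000 for library 2), and another library held cells positive for both tdTomato and GFP (1200 sorted), so every cell was sorted for GFP from the Sox2 locus. In this line a tamoxifen-dependent Cre is driven by the smooth muscle actin promoter, so tdTomato marks cells, and their progeny, in which that promoter was active around induction, whose schedule is not given in the sources used here. The labels give neither the sex nor the exact age of the mice, nor whether the libraries came from separate mice. The p-values then cannot be read as measuring a spread between mice. They rest on a spread between library sums that was estimated over genes together, and hardly on each gene's own spread.

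New interneurons of the olfactory bulb arise in the SVZ from stem cells that share many genes with astrocytes. These give rise to dividing transit-amplifying cells and then to neuroblasts, which migrate along the rostral migratory stream to the bulb and mature there into GABAergic granule and periglomerular cells. Transcription factors switched on along this route help to set the subtype, and prokineticin signalling helps to guide the migrating cells. The tissue here is the SVZ and not the bulb, so mature bulb interneurons were not sampled.

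Filtering kept 256 and 1121 cells of libraries 1 and 2, at median depths of 2640 and 2401 UMIs, and 252 tdTomato-positive cells at 2535 UMIs. Libraries 1 and 2 shared 2 cell barcodes. Clusters were built without the 10 genes. The class of neuroblast-like cells held 58 and 350 cells of libraries 1 and 2, the transit-amplifying-like class 45 and 213 and the astrocyte-like class 43 and 215. A cluster of 76 and 228 cells stayed unnamed, since 2 neuroblast and 2 neuron markers were among its 10 leading genes, which were headed by Meg3, Robo2 and Sdk2. These markers, Shtn1, Nrep, Meg3 and Celf4, were also among the 10 leading genes of the neuroblast-like class, so Meg3 is not particular to the unnamed cluster. The unnamed cluster had the highest summed neuron markers outside the neuroblast-like class and is called the Meg3-rich cluster here. Its 14 neuron markers summed to 6653 and 8259 CPM in libraries 1 and 2 (UMIs of a gene or list, scaled to a common total for each library and class), against 4695 and 5101 CPM in neuroblast-like cells, and its 13 neuroblast markers to 24136 and 22207 CPM against 26702 and 28026 CPM. The transit-amplifying-like class had 10464 and 9563 CPM of transit-amplifying markers and 16073 and 15301 CPM of neuroblast markers, so dividing neuroblasts in it cannot be told apart from transit-amplifying cells. The classes are given below in the order of the lineage their names stand for, and no order of the cells was measured. At a coarser clustering the Meg3-rich cluster was not separate, and the neuroblast-like class then held 713 cells. The cut between these classes also moved at other settings. Under a stricter cell filter the Meg3-rich cluster held 192 cells and the neuroblast-like class 526. Clustered on genes with an odd last digit in their identifier, they held 461 and 277, against 304 and 408 here.

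The subtype label was checked against other genes. The GABA-synthesis genes Gad1 and Gad2 were detected in the Meg3-rich cluster at 206 and 180 CPM and at 465 and 424 CPM, and at 135 and 164 CPM and at 340 and 362 CPM in neuroblast-like cells. Of 7 glutamatergic markers none had a UMI in the Meg3-rich cluster, while 4 and 5 were detected in neuroblast-like cells of libraries 1 and 2, with summed levels of 64.6 and 18.7 CPM. Th, which marks dopaminergic periglomerular cells, had no UMI in the Meg3-rich or the neuroblast-like cells. Foxp2, Meis2 and Bcl11b are also known from striatal projection neurons, whose tissue lies next to the SVZ. Of 12 markers of those neurons, 3 and 7 were detected in the Meg3-rich cluster of libraries 1 and 2, with summed levels of 29.4 and 69.8 CPM, against 29.3 and 43.7 CPM in neuroblast-like cells. In the Meg3-rich cluster of library 1 they included Rgs9 and Pde1b, with 1 and 2 UMIs, and in library 2 Pde10a had 16 UMIs and Ppp1r1b, Drd1, Rgs9, Pde1b, Tac1 and Pdyn between 1 and 4 each. Drd2, Adora2a, Penk and Gpr6, markers of the indirect-pathway type, were at 0 in both libraries, and the part of striatal neurons in the levels below was not tested.

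The promoters of 6 of the 10 genes (Pax6, Meis2, Prokr2, Etv1, Bcl11b and Synpr) were matched by symbol in RefSeq, with 9 start sites. Each sequence spans 250 bases before to 50 bases after the start, in build GRCm38.p6. They were searched on both strands for short core motifs of the factor families in the set, TAATTA for homeodomain factors, TGACAG for MEIS factors, TGATTGAT for PBX factors, TGTTTAC for FOXP factors and CCGGAAGT for ETS factors such as Etv1. No TAATTA, TGATTGAT or TGTTTAC was present in these windows. The 3 windows that held a motif are shown because they belong to the receptor, to the vesicle gene and to the gene that ran against the others, with the motif in capitals. They lie at chr2:132385398-132385697 on the minus strand for Prokr2, at chr14:13284530-13284829 on the plus strand for Synpr and at chr2:105682213-105682512 on the plus strand for a start site within Pax6.
Prokr2: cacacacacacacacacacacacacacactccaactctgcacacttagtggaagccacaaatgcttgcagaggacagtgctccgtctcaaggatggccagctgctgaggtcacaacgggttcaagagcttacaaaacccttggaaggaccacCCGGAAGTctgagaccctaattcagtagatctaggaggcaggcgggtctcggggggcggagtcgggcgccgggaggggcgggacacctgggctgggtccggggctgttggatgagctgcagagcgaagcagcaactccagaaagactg
Synpr: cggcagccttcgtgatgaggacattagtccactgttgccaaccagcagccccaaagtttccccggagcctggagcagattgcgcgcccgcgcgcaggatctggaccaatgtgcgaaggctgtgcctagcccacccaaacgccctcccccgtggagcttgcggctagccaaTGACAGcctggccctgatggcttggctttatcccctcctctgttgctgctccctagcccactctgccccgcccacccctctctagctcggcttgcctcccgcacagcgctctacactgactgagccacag
Pax6: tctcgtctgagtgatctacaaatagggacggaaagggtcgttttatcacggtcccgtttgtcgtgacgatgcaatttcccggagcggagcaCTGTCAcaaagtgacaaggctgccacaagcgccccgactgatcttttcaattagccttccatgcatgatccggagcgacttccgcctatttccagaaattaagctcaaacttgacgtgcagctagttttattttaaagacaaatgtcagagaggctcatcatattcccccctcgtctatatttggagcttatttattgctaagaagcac
CCGGAAGT occurred in 3.89% of 32851 mouse promoter windows of this length and TGACAG, read here as CTGTCA in the Pax6 window, in 19.2%. These matches are descriptions of sequence and not binding sites.

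Prokr2 encodes the receptor for prokineticin 2, which migrating neuroblasts use on their way to the bulb. It was measured at 0 and 5.67 CPM in astrocyte-like cells of libraries 1 and 2, at 10.8 and 1.46 CPM in transit-amplifying-like cells, at 129 and 84.9 CPM in neuroblast-like cells and at 176 and 221 CPM in the Meg3-rich cluster. Of its 222 UMIs in these libraries the Meg3-rich cluster held 55.0% and the neuroblast-like class 40.5%, while ependymal-like and oligodendrocyte precursor-like cells had none. The gene lies at chr2:132337733-132385447 on the minus strand (GENCODE vM21, GRCm38, as for all positions of genes here, each of them protein-coding).

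Foxp2, a forkhead transcription factor, had the same order of these 4 classes by mean level. Its level was 0 and 3.78 CPM in astrocyte-like cells, 13.5 and 10.9 CPM in transit-amplifying-like cells, 112 and 144 CPM in neuroblast-like cells and 341 and 320 CPM in the Meg3-rich cluster, with no overlap between neighbours. Foxp2 lies at chr6:14901349-15441977 on the plus strand. Tshz1, a zinc finger homeobox factor known in mice to be needed for interneurons to leave the migratory stream and settle in the bulb, was measured at 10.5 and 41.5 CPM in astrocyte-like cells, 48.7 and 70.0 CPM in transit-amplifying-like cells, 241 and 239 CPM in neuroblast-like cells and 424 and 392 CPM in the Meg3-rich cluster. Unlike Prokr2 and Foxp2, Tshz1 was also found in oligodendrocyte precursor-like cells, at 270 and 105 CPM from 8 and 12 UMIs, a range that included the level of neuroblast-like cells. Tshz1 lies at chr18:84011627-84087706 on the minus strand.

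Meis2 and Pbx3 are homeodomain factors of the TALE class, whose MEIS and PBX members bind DNA as partners. Meis2 was measured at 316 and 304 CPM in astrocyte-like cells, 552 and 647 CPM in transit-amplifying-like cells, 2083 and 2366 CPM in neuroblast-like cells and 2588 and 3059 CPM in the Meg3-rich cluster. These 4 classes did not overlap, and Meis2 was also present at 178 and 282 CPM in ependymal-like cells and at 218 CPM in 177 tdTomato-positive ependymal-like cells. Pbx3 was at 31.6 and 18.9 CPM in astrocyte-like cells, 29.8 and 37.2 CPM in transit-amplifying-like cells, 434 and 251 CPM in neuroblast-like cells and 571 and 599 CPM in the Meg3-rich cluster. Only the first pair of neighbours in this order overlapped. The 2 libraries differed most in neuroblast-like cells, where Pbx3 was higher in library 1. Meis2 lies at chr2:115863064-116065839 and Pbx3 at chr2:34171457-34373142, both on the minus strand.

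Pax6, a paired-domain factor of neural progenitors that also takes part in making dopaminergic periglomerular cells, ran in the opposite order. It was measured at 316 and 279 CPM in astrocyte-like cells, 170 and 265 CPM in transit-amplifying-like cells, 112 and 211 CPM in neuroblast-like cells and 88.2 and 101 CPM in the Meg3-rich cluster. Transit-amplifying-like and neuroblast-like values overlapped, and the other neighbours in this order did not. Within the astrocyte-like class Pax6 was at 300 and 245 CPM in the cluster led by Gfap, Id3 and Thbs4 and at 321 and 288 CPM in the cluster led by Slc7a10, Htra1 and Ntm. Within the transit-amplifying-like class it was at 192 and 300 CPM in the cluster led by the mitotic genes Cenpf and Ube2c and at 131 and 206 CPM in the cluster led by the replication genes Mcm2 and Mcm3. Pax6 lies at chr2:105668900-105697364 on the plus strand.

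Etv1 (also called Er81), an ETS factor linked to dopaminergic interneurons of the bulb, was detected more widely. It was measured at 52.7 and 64.2 CPM in astrocyte-like cells, 179 and 191 CPM in transit-amplifying-like cells, 481 and 411 CPM in neuroblast-like cells and 447 and 525 CPM in the Meg3-rich cluster. The last 2 of these ranges overlapped. Oligodendrocyte-like cells had 235 and 446 CPM from 11 and 79 UMIs, a range that overlapped the neuroblast-like one. Among tdTomato-positive cells, 14 oligodendrocyte-like cells held 16 Etv1 UMIs, in 6 of the cells. Etv1 lies at chr12:38779380-38870484 on the plus strand.

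Runx1t1, a transcriptional corepressor of the ETO family, Synpr, which encodes the synaptic vesicle protein synaptoporin and is no transcription factor, and Bcl11b (also called Ctip2), a zinc finger factor, completed the set. Runx1t1 was at 31.6 and 17.0 CPM in astrocyte-like cells, 10.8 and 12.4 CPM in transit-amplifying-like cells, 170 and 170 CPM in neuroblast-like cells and 335 and 248 CPM in the Meg3-rich cluster. Synpr was at 21.1 and 3.78 CPM in astrocyte-like cells, 43.3 and 26.2 CPM in transit-amplifying-like cells, 129 and 196 CPM in neuroblast-like cells and 265 and 245 CPM in the Meg3-rich cluster. Bcl11b was at 0 and 7.55 CPM in astrocyte-like cells, 97.4 and 67.8 CPM in transit-amplifying-like cells, 229 and 141 CPM in neuroblast-like cells and 182 and 159 CPM in the Meg3-rich cluster. Bcl11b alone of these 3 overlapped between neuroblast-like cells and the Meg3-rich cluster. In the 177 tdTomato-positive ependymal-like cells (median depth 3284 UMIs) Synpr had 27 UMIs, or 45.9 CPM, while Prokr2, Pbx3, Etv1 and Bcl11b had none, which allows a share of cells with a UMI of up to 1.69% (3 cells). Runx1t1 lies at chr4:13743436-13893649 and Synpr at chr14:13284780-13616340 on the plus strand, and Bcl11b at chr12:107910403-108003602 on the minus strand.

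**Figure D1:**
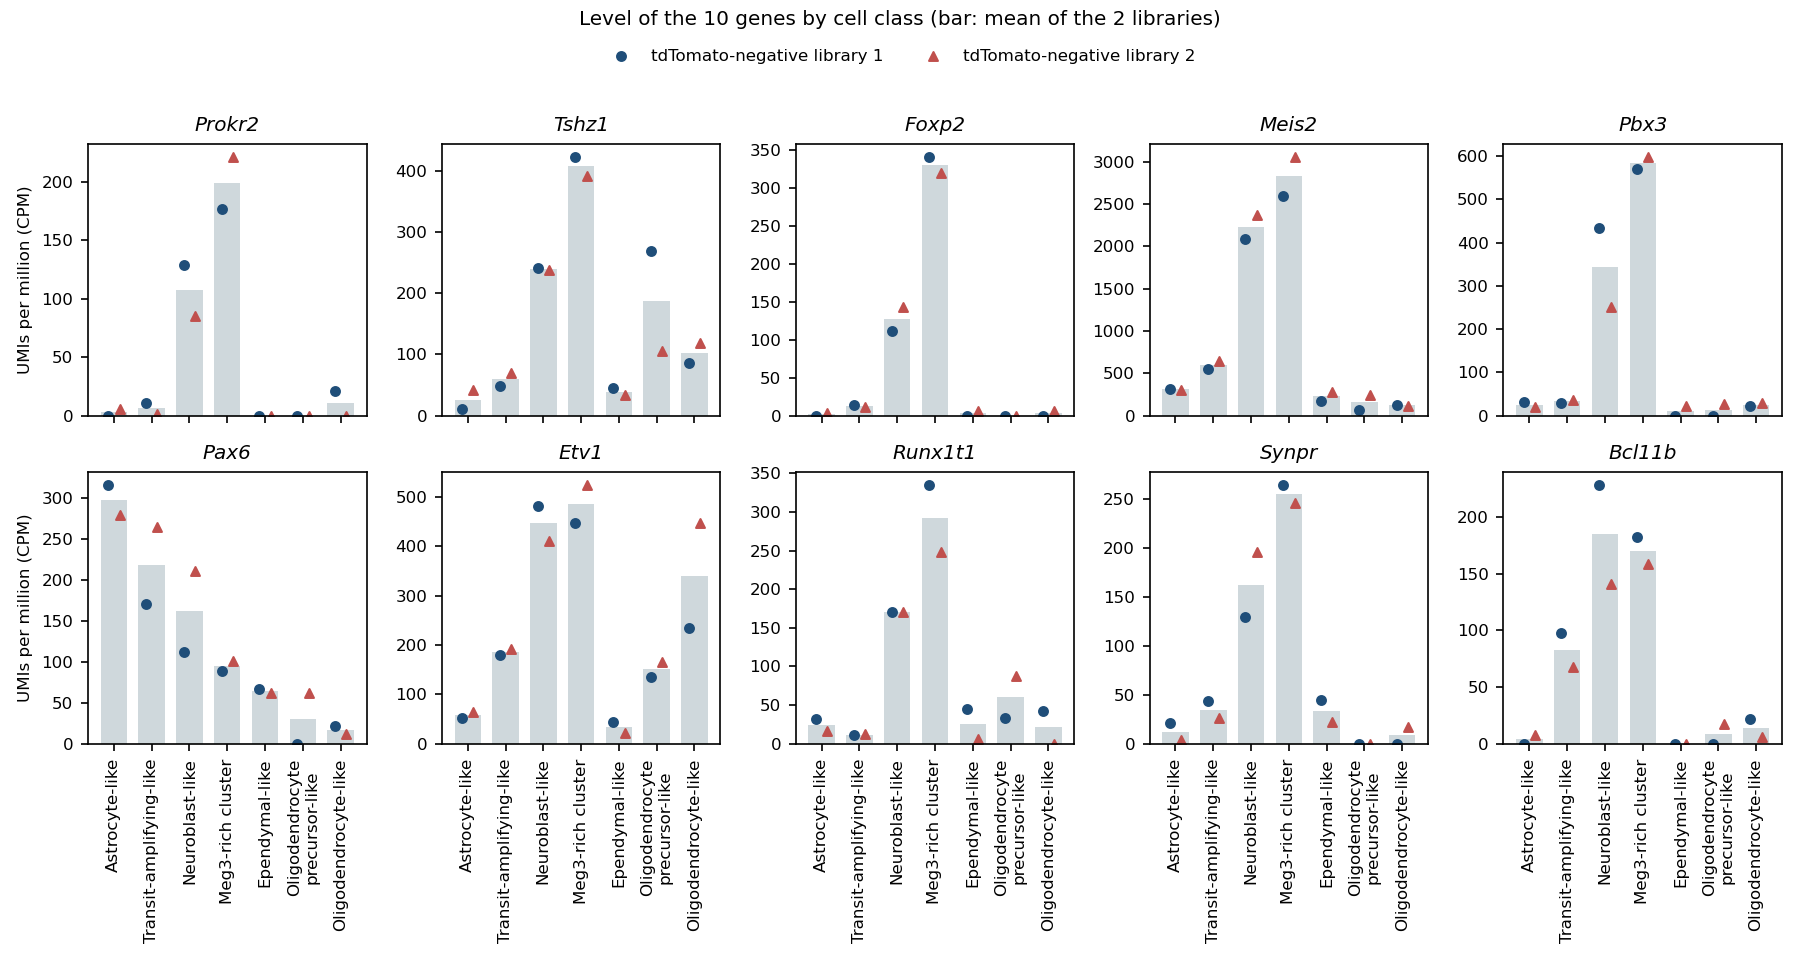
Level of each gene in CPM (vertical axis from 0) in 7 classes of the 2 tdTomato-negative libraries. Circles and triangles are libraries 1 and 2 and bars are their means. For 8 of the 10 genes the highest bar is that of the Meg3-rich cluster, for Bcl11b that of neuroblast-like cells and for Pax6 that of astrocyte-like cells.

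The first comparison asked which of the genes change between the Meg3-rich cluster and neuroblast-like cells. The counts were summed per library and class and fitted together, 14 sums with library as a block, in edgeR's quasi-likelihood test with Benjamini-Hochberg adjustment over 5954 genes. Of the 10 genes, 4 rose and none fell, against 0.286% of all genes tested called higher and 0.218% called lower (0.504% in either direction). At an unadjusted p under 0.05, edgeR had 7 of the 10 higher and 1 lower and DESeq2 5 higher and 1 lower. The 10 genes had a median log2 fold change of 0.59, and all genes tested one of -0.02. Of the 2922 tested genes kept out of the clustering, 0.479% were called, 0.24% in each direction. Prokr2, Pbx3 and Foxp2 had already led a similar cluster in earlier work on these files, and Tshz1 had been used with Prokr2 and Foxp2 to name one. The rise of these 4 genes is thus not independent evidence.

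Foxp2 rose most, to 331 ± 14.9 CPM in the Meg3-rich cluster against 128 ± 22.7 CPM in neuroblast-like cells (SD, n = 2 libraries each), a log2 fold change of 1.28 ± 0.25 (SE, adjusted p = 0.000243 by edgeR). Prokr2 rose by 1.07 ± 0.27 (adjusted p = 0.0191 by edgeR), Pbx3 by 0.95 ± 0.17 (1.75e-05) and Tshz1 by 0.75 ± 0.19 (0.0129). All 4 were higher in the Meg3-rich cluster in both libraries. In library 1 alone the log2 change of Prokr2 was 0.46 and that of Pbx3 0.41, against 1.34 and 1.23 in library 2 alone, while Foxp2 changed by 1.61 and 1.13 and Tshz1 by 0.83 and 0.69 in libraries 1 and 2. The SE values come from a spread shared over genes, so for Prokr2 and Pbx3 they do not reflect the difference between the libraries.

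The other 6 genes did not pass the test. Their log2 fold changes were 0.68 ± 0.25 for Runx1t1 (adjusted p = 0.350 by edgeR), 0.50 ± 0.25 for Synpr (0.856), 0.34 ± 0.12 for Meis2 (0.309), 0.20 ± 0.17 for Etv1 (0.962) and -0.02 ± 0.27 for Bcl11b (1). The change of Pax6 was -0.93 ± 0.26, with an adjusted p of 0.0616 by edgeR. Its values did not overlap between the classes, but neither did those of Runx1t1, Synpr and Meis2, so this does not set Pax6 apart. Pax6 was called lower without the filter on low counts (adjusted p = 0.0429 by edgeR) and when cells were clustered again without predicted doublets (0.00879 by edgeR). Only 2 and 3 cells of libraries 1 and 2 were predicted doublets, but the Meg3-rich cluster then held 350 cells and the neuroblast-like class 360. The 4 calls depended on the library block: without it none of the 10 genes was called (Foxp2 had an adjusted p of 0.0771 by edgeR, and 5 genes were higher and 1 lower at an unadjusted p under 0.05), and DESeq2 called Foxp2 alone (0.0208). Prokr2 (adjusted p = 0.178 by edgeR) and Tshz1 (0.139) were also lost without the filter on low counts, and Tshz1 at a finer clustering (0.217). The Meg3-rich cluster was also shallower, with a median of 1783 UMIs per cell against 2175 in neuroblast-like cells, and the part of depth in these differences was not tested.

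The second comparison set neuroblast-like cells against transit-amplifying-like cells. In neuroblast-like cells 9 of the 10 genes were higher than in transit-amplifying-like cells and none was lower, where 13.8% of 5954 genes tested were called higher and 15.1% lower (28.9% in all). Among genes kept out of the clustering 29.3% were called, 14.4% higher and 14.9% lower. The median log2 fold change was 2.24 for the 10 genes and -0.01 for all genes tested. Prokr2 rose by 4.66 ± 0.46 on the log2 scale (SE, adjusted p = 4.44e-22 by edgeR), from 90 UMIs in neuroblast-like cells against 6 in transit-amplifying-like cells. Runx1t1 rose by 3.81 ± 0.34, Foxp2 by 3.55 ± 0.36, Pbx3 by 3.09 ± 0.23 and Synpr by 2.55 ± 0.29.

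Smaller rises were measured for Tshz1 (1.93 ± 0.21), Meis2 (1.92 ± 0.13), Etv1 (1.24 ± 0.17) and Bcl11b (1.15 ± 0.26, adjusted p = 7.23e-05 by edgeR). Pax6 did not pass (-0.31 ± 0.18, adjusted p = 0.208 by edgeR), but was called lower under 3 of the other settings, which are a coarser clustering, a stricter cell filter and clustering without the tdTomato-positive library. Transit-amplifying-like cells were far deeper (a median of 6114 UMIs against 2175 in neuroblast-like cells), and the part of depth in these differences was not tested.

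Against astrocyte-like cells, a class that can include quiescent stem cells, neuroblast-like cells had 9 genes higher and Pax6 lower, where 24.1% of genes tested were called higher and 23.5% lower (47.6% in all). Among genes kept out of the clustering 47% were called, 23.4% higher and 23.6% lower. The median log2 fold change was 3.30 for the 10 genes and 0.09 for all genes tested. This comparison uses the same neuroblast-like sums as the others, so the comparisons are not independent. Pax6 averaged 161 ± 70.4 CPM in neuroblast-like cells and 298 ± 25.9 CPM in astrocyte-like cells (SD, n = 2 each), a log2 fold change of -0.74 ± 0.21 (adjusted p = 0.00112 by edgeR). Bcl11b, with 152 UMIs against 4, changed by 4.43 ± 0.52 and Synpr, with 179 against 4, by 4.56 ± 0.52. Pbx3 changed by 3.66 ± 0.34, Runx1t1 by 2.95 ± 0.41, Meis2 by 2.79 ± 0.16, Etv1 by 2.67 ± 0.25 and Tshz1 by 2.57 ± 0.31. Prokr2 and Foxp2 had 3 and 2 UMIs in astrocyte-like cells, so their ratios are given from the counts, as log2 4.27 (95% interval 2.68 to 6.57, counting error only) and 5.43 (3.55 to 8.49).

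**Figure D2:**
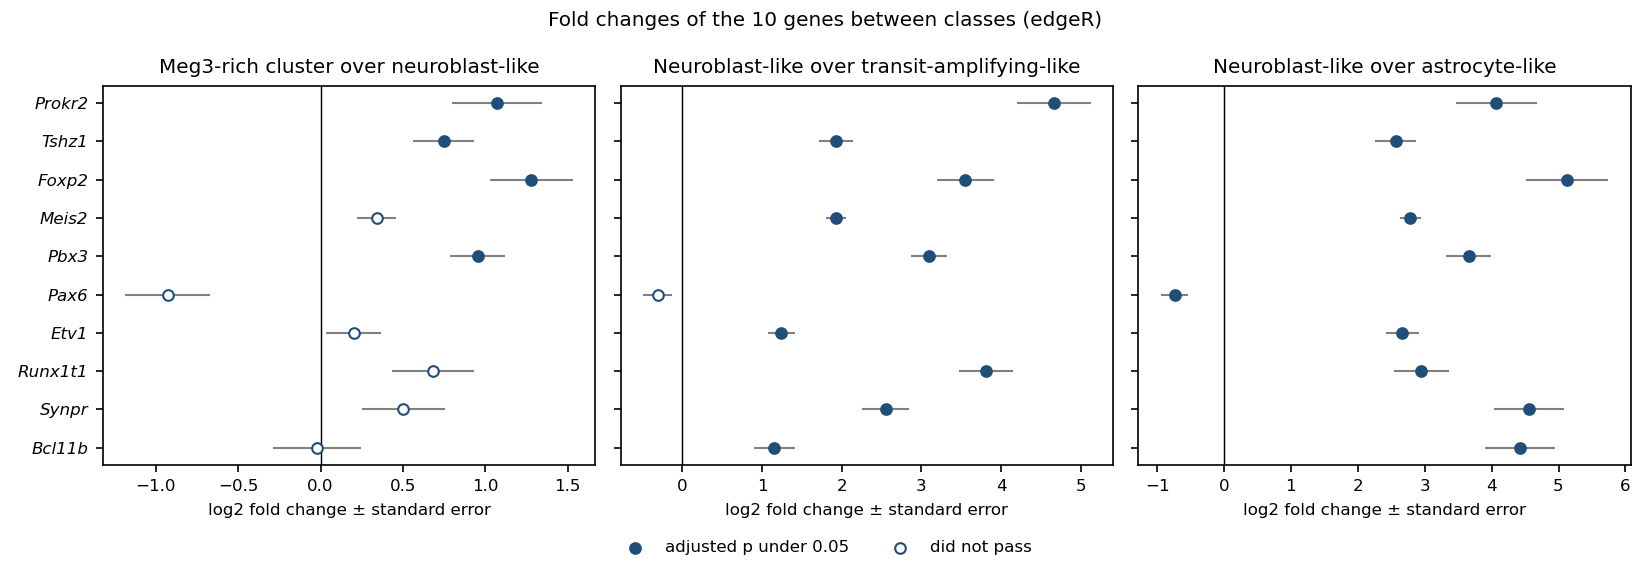
Log2 fold change (horizontal axis) of each gene in the 3 comparisons, with the standard error as a bar. Filled points passed an adjusted p of 0.05 in edgeR: 4 genes between the Meg3-rich cluster and neuroblast-like cells, 9 between neuroblast-like and transit-amplifying-like cells, and all 10, Pax6 in the negative direction, between neuroblast-like and astrocyte-like cells.

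Relatives and partners of the 10 genes were followed in a list of 20 genes, of which 9 were tested. None was called in either direction between the Meg3-rich cluster and neuroblast-like cells, by edgeR or DESeq2, with 1 gene higher at an unadjusted p under 0.05 by edgeR and 0 by DESeq2. Of all genes tested edgeR called 0.504% there, so the lack of calls among 9 genes is near that share. The list's median log2 change there was 0.14 (0.22 over the 8 genes with at least 10 UMIs in these classes). Between neuroblast-like and transit-amplifying-like cells 5 rose and none fell by edgeR, and DESeq2 called 3 higher, beside 13.8% and 15.1% of all genes tested called higher and lower by edgeR. Among the 5 called by edgeR were Tshz2 (log2 3.82 ± 0.35), Syngr1 (1.90 ± 0.55), the TALE factor Meis1 (1.00 ± 0.38) and Bcl11a (0.88 ± 0.16), the paralog of Bcl11b. Against astrocyte-like cells 4 rose and 2 fell by edgeR, and DESeq2 called 3 higher and 2 lower, where 24.1% and 23.5% of all genes tested were called higher and lower by edgeR. The genes that fell were the ETS factors Etv4 and Etv5, paralogs of Etv1. Etv5 changed by -2.51 ± 0.64 on the log2 scale. Etv4 had 3 UMIs in neuroblast-like cells and 39 in astrocyte-like cells, a log2 ratio of -4.34 from the counts (95% interval -6.68 to -2.68, counting error only). Etv4 was at 0 and 3.75 CPM in neuroblast-like cells against 73.8 and 60.4 CPM in astrocyte-like cells, and Etv5 at 17.6 and 6.25 CPM against 63.2 and 41.5 CPM. Prokr1 and Prok2 had no UMI in any of the 4 classes compared here.

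A second list held 26 genes of interneuron fate, of which 15 were tested. None was called between the Meg3-rich cluster and neuroblast-like cells by edgeR or DESeq2, with a median log2 change of -0.31. Of all genes tested edgeR called 0.504% in that comparison, so the lack of calls among 15 genes is near that share. Calb1, Pvalb and Nkx6-2 had fewer than 10 UMIs in these classes, and without them the median was -0.073. At an unadjusted p under 0.05 edgeR had 3 of them lower, and DESeq2 1 higher and 1 lower. Between neuroblast-like and transit-amplifying-like cells 8 rose and 1 fell by edgeR (13.8% and 15.1% over all genes tested), with a median of 0.51, or 0.72 over the 13 genes with at least 10 UMIs, against 5 higher and 0 lower by DESeq2 and likewise by edgeR without the library block. The GABA-synthesis gene Gad2 rose by 1.81 ± 0.18, the zinc finger factors Sp8 and Sp9 by 1.75 ± 0.20 and 1.42 ± 0.14, and the homeobox factor Dlx1 by 0.83 ± 0.14, while Sall3 changed by -1.13 ± 0.39, a call that both of these other fits lose. Against astrocyte-like cells 10 rose and 1 fell by edgeR, and likewise by DESeq2, where 24.1% and 23.5% of all genes tested were called higher and lower by edgeR. The median was 4.03. Sp9 rose by 4.98 ± 0.29, and the gene that fell was the homeobox factor Nkx6-2, with 1 UMI in neuroblast-like cells and 23 in astrocyte-like cells.

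Shares of cells were compared at a common depth of 1000 UMIs per cell, to which deeper cells were thinned in a single random draw. Of the 712 cells of the Meg3-rich cluster and the neuroblast-like class, 703 reached it. Prokr2 was then seen in 16.7% and 20.5% of Meg3-rich cells of libraries 1 and 2 and in 10.5% and 10.3% of neuroblast-like cells, against 0% of 57 ependymal-like cells. Foxp2 was seen in 26.4% and 25.9% of Meg3-rich cells and 12.3% and 12.9% of neuroblast-like cells, against 0% of the same ependymal-like cells. Without thinning these shares were 43.4% and 38.2% for Foxp2 in Meg3-rich cells and 24.1% and 23.7% in neuroblast-like cells, against 1.72% of 58 ependymal-like cells with a median depth of 4237 UMIs.

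At this depth astrocyte-like cells held a mean of 0.69 and 0.52 of the 10 genes, transit-amplifying-like cells 0.95 and 1.06, neuroblast-like cells 2.44 and 2.49 and cells of the Meg3-rich cluster 3.19 and 3.31. Of Prokr2, Foxp2 and Tshz1, at least 2 were seen in none of 44 and 213 transit-amplifying-like cells, in 5.26% and 8.29% of neuroblast-like cells and in 23.6% and 21.0% of Meg3-rich cells. A count of 0 in the 213 cells allows a share of up to 1.41% (3 cells) at this depth only. All 3 together were seen in 2 and 5 Meg3-rich cells and in 1 and 4 neuroblast-like cells after thinning. Without thinning, at least 2 were seen in 3 of 45 and 9 of 213 transit-amplifying-like cells of libraries 1 and 2, which were far deeper. Of the 45 cells, 1 held all 3 genes. The unthinned counts for at least 2 were 16 of 58 and 63 of 350 neuroblast-like cells and 32 of 76 and 84 of 228 Meg3-rich cells.

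Co-detection was counted over the 45 pairs of the 10 genes in the 703 thinned cells of both classes. Cells are not replicates, so each library's count was set beside the number that independence gives, with no test. In both libraries 29 pairs lay above independence and 2 below it. With the expected number computed within each class these counts were 28 and 2, and without thinning 19 and 12. The median pooled ratio of the 45 pairs was 1.07 (1.01 without thinning), so a typical pair lay near independence. The pairs given next are among the highest in thinned cells. Prokr2 and Foxp2 were together in 31 cells where independence gave 18.3, a ratio of 1.69 (1.52 within classes). Foxp2 and Pbx3 shared 65 cells against 40.4 expected (1.61), Prokr2 and Pbx3 49 against 31.3 (1.57), and Tshz1 and Pbx3 87 against 61.3 (1.42). All 10 pairs among Prokr2, Foxp2, Pbx3, Tshz1 and Runx1t1 lay above independence in both libraries. This group was picked after the ratios were seen, so its being above is no evidence for a group. Pairs outside it, such as Meis2 with Prokr2, Foxp2, Tshz1 or Pbx3 and Synpr with Tshz1, Pbx3 or Runx1t1, were also above in both.

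The same relation can be read as shares. Pbx3 was seen in 50.0% of 26 and 50.5% of 103 cells with Foxp2 in libraries 1 and 2, against 28.2% and 26.8% of cells without it. The exact 95% binomial intervals, which cover counting error only and test no difference, were 29.9% to 70.1% and 19.7% to 37.9% in library 1, and 40.5% to 60.5% and 22.8% to 31.0% in library 2. Prokr2 was seen in 23.1% and 24.3% of cells with Foxp2, against 11.7% and 12.1% of cells without it, and Tshz1 in 46.2% and 37.9% against 23.3% and 25.7%. Cells with Foxp2 came more often from the Meg3-rich cluster (73.1% and 56.3%) than cells without it (51.5% and 35.2%), and their median depth before thinning was lower (2228 and 1667 UMIs against 2384 and 2010).

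The lowest pooled ratios in thinned cells were those of pairs with Pax6, and there they differed between the libraries. Pbx3 and Pax6 shared 14 cells where independence gave 23.7, a ratio of 0.59, which was below 1 in library 2 and above 1 in library 1. Tshz1 and Pax6 shared 15 against 21.2 (0.71), again below 1 in library 2 alone. In library 1 no cell held Pax6 with Prokr2 or with Foxp2, but only 10 thinned cells there had Pax6, so these zeros rest on few cells (for Foxp2 and Pax6, 2.02 under independence). In library 2 Pax6 and Prokr2 shared 15 cells where independence gave 9.43, a ratio of 1.59. Without thinning the same pair was below 1 in both libraries (0.609 in library 1 and 0.906 in library 2), as were Foxp2 and Pax6 (0.428 and 0.624), Pbx3 and Pax6 (0.899 and 0.596), Bcl11b and Pax6 (0.620 and 0.695) and Tshz1 and Pax6 (0.996 and 0.777). The direction of pairs with Pax6 in a library thus differed between thinned and full counts. The thinning was a single random draw and few thinned cells held Pax6, so the part of depth in this was not tested. In thinned cells Prokr2 and Bcl11b (0.93) and Etv1 and Synpr (0.92) were the 2 pairs below independence in both libraries. Pax6 and Synpr had a ratio of 1.47 without thinning and 0.97 with it.

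**Figure D3:**
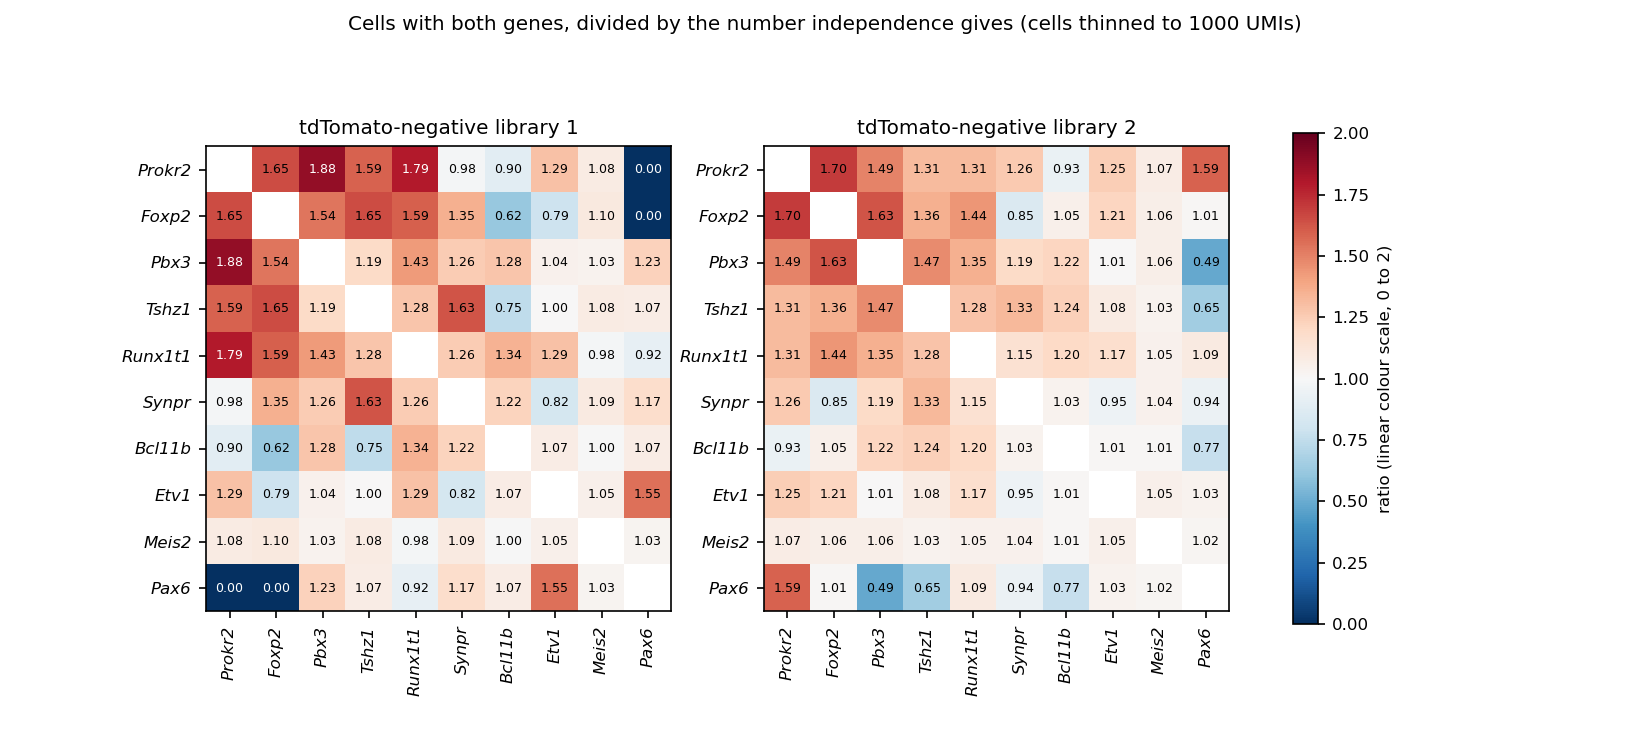
Number of cells with a UMI of both genes divided by the number independence gives, for the 45 pairs in each tdTomato-negative library, over Meg3-rich and neuroblast-like cells thinned to 1000 UMIs. Red is above and blue below 1, and the block of Prokr2, Foxp2, Pbx3, Tshz1 and Runx1t1 is above 1 in both libraries, with Prokr2 and Pbx3 at 1.88 and 1.49. The block was picked after the ratios were seen.

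How a gene's UMIs lay over cells differed between members. In neuroblast-like cells of library 2 Pax6 had 169 UMIs in 77 of 350 cells, where a spread in proportion to depth would put them in 131 cells, a ratio of 0.587. The tenth of those cells richest in Pax6 held 75.1% of its UMIs, and the richest cell had 15. The ratio was 0.640 in library 1, from 19 UMIs in 10 cells. Bcl11b, by contrast, had 113 UMIs in 94 cells of library 2, a ratio of 0.989. In the Meg3-rich cluster Pax6 was less uneven, at 0.742 and 0.846, with at most 3 UMIs per cell.

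**Figure D4:**
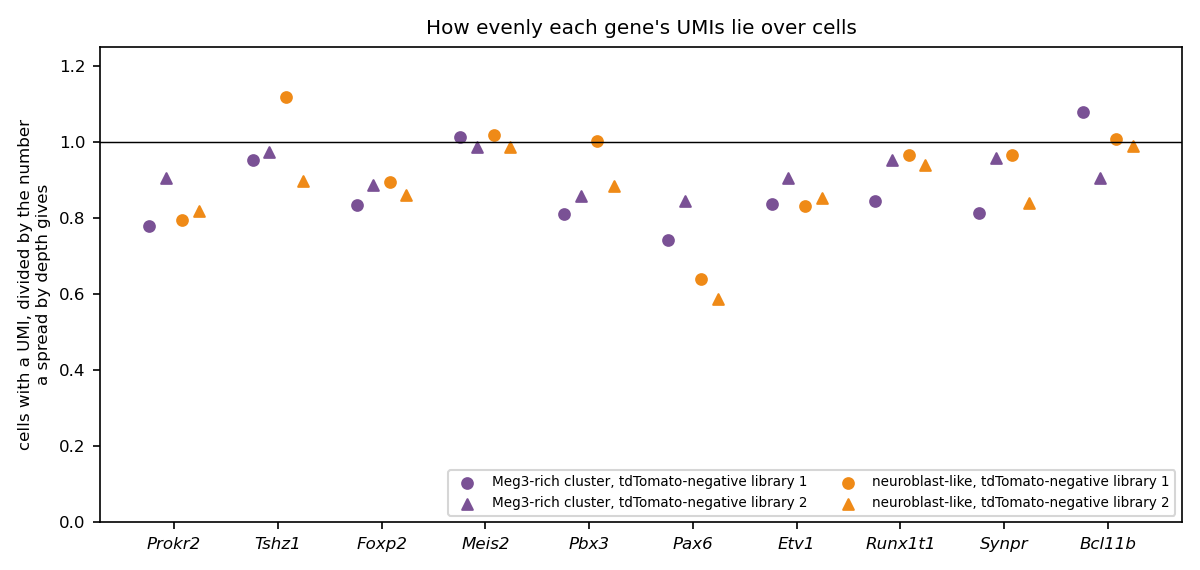
Cells with at least 1 UMI of a gene, divided by the number of cells that would have one if its UMIs were spread in proportion to cell depth (vertical axis, 1 is an even spread), for Meg3-rich cells (purple) and neuroblast-like cells (orange) of libraries 1 (circles) and 2 (triangles). Pax6 in neuroblast-like cells is lowest, at 0.640 and 0.587. For Meis2, seen in nearly every cell, the ratio says little about evenness.

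Cells of both classes with a Foxp2 UMI, without thinning, were also summed and set beside those without one. Foxp2 was seen in 39.5% of Meg3-rich and 23.8% of neuroblast-like cells, so this split also differs in class, whose part was not tested. Prokr2 was 1.93 and 1.71 times as high in the Foxp2 cells of libraries 1 and 2, and Pbx3 1.58 and 2.25 times as high. Without the richest cell of each gene these ratios were 2.36 and 1.81 for Prokr2 and 1.48 and 2.20 for Pbx3. Pax6 was 0.332 and 0.331 times as high, at 43.0 and 69.5 CPM in cells with Foxp2 against 129 and 210 CPM in cells without it. In thinned cells of library 2, Pax6 was seen in 11.7% of cells with Foxp2 and 11.5% of cells without it, so no order is read from the Pax6 values. In cells with a Pax6 UMI, Nr2f1, a nuclear receptor, was 9.04 and 2.66 times as high as in cells without one, from 24 and 41 UMIs against 12 and 55. A single cell with Pax6 held 14 of these UMIs in library 1 and another 13 in library 2, and without these the ratios were 4.25 and 1.85.

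Over the 14 library and class sums, Pearson correlations of log2(CPM + 10) were used to name the 2 genes closest to each of the 10 in pattern, among 7086 genes. The sums share libraries and differ in depth, so these are descriptions. Prokr2 was closest to Socs2 (r = 0.97) and to Foxp2 (0.94), and Foxp2 to Syt6 (0.96) and Pbx3 (0.95). Pbx3 was closest to Lrrc7 and Islr2 (0.97 and 0.96), Tshz1 to Ralgps1 and Ankrd12 (0.93 and 0.91), Meis2 to Celf4 and the vesicular GABA transporter gene Slc32a1 (0.96 each), and Runx1t1 to Amn1 and Erbb4 (0.96 and 0.95). Etv1 was closest to Elavl3 and Zeb2 (0.98 and 0.95), Synpr to Tiam2 and Zfp704 (0.96 and 0.94) and Bcl11b to Cd1d1 and Arl4d (0.99 and 0.98). Pax6 was closest to Nr2f1 and Atp5o (0.90 and 0.88), and its correlation with the other 9 genes ran between -0.35 for Tshz1 and 0.58 for Meis2.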

How the data were processed

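The deposited files hold UMI counts per gene and cell barcode for 3 libraries made with 10x Genomics 3' version 2 chemistry, and Cell Ranger, STAR, Seurat 1.4.0.15 and the builds mm10 and GRCm38.p5 are named in the submitters' processing notes. The authors deposited counts that were not normalized, and no filter on cells is given in the sources used here. The libraries held 314 (tdTomato-positive), 259 and 1127 (tdTomato-negative) barcodes with 788344, 929997 and 3593633 UMIs.

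Cells needed at least 300 genes, with mitochondrial UMIs at 25% or less. They were clustered in scanpy 1.11.5 (counts per 10000, 1000 variable genes, 20 components, 15 neighbours, Leiden resolution 1.0) on 14058 genes (Ensembl identifiers with an even last digit, plus markers), without the 10 genes and the 2 gene lists. A cluster was named by the list with the most markers among its 10 leading genes. The unnamed cluster with the highest neuron marker sum stood for young neurons, provided its leading genes did not hold more markers of a non-neuronal class, a condition added after the data were seen. Scrublet marked 9, 2 and 3 cells, too few to count as a working doublet call, and the labels describe a gate against doublets at sorting.

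UMIs were summed per tdTomato-negative library and class (at least 10 cells) and tested with edgeR 4.0.16 (TMM, filterByExpr, quasi-likelihood, class and library as terms, 6 residual degrees of freedom), with Benjamini-Hochberg adjustment over 5954 genes at 0.05. The library is a block because classes of 1 library come from the same sorted cells. For the 10 genes the p-values equal a normal tail of the fold change over its SE. The spread was thus shared over genes, and each gene's own spread had little weight. The script was tested on simulated data. DESeq2 1.42.0 and other settings were alternatives. Shares have exact Clopper-Pearson 95% intervals and a count of 0 a floor of 3 counts, which cover counting error only. For each gene the 2 closest others were named by Pearson correlation, among genes with a mean of at least 20 CPM. From the 2 lists up to 10 genes called between the Meg3-rich cluster and neuroblast-like cells were to be named. None was called there, and those named for the other comparisons were chosen after their values were seen. So were the splits by Foxp2 and Pax6, the list medians over genes with at least 10 UMIs and the ratios without the richest cell. The co-detection group of Prokr2, Foxp2, Pbx3, Tshz1 and Runx1t1 was also chosen in this way. The 10 genes, the lists and the tests were chosen with earlier results of these data known. Counts were per gene at the 3' end and are not compared between genes. Some listed genes are counted but not reported by name here.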

Additional observations from a re-analysis of the deposited data

How the results depend on the processing

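Of 380 log2 fold changes of the 10 genes under other settings, 336 were counted as unchanged. Those with a test kept their direction and side of the threshold. Where no test was possible they kept direction and moved by no more than the SD of the 2 values with 1 library left out. Of the other values, 10 lost and 12 gained a call, 17 moved further and 5 changed sign. That SD grows with the difference between the libraries, so the rule for untested values can hardly show such a difference. The comparison of the Meg3-rich cluster with neuroblast-like cells moved most, from 4 of the 10 genes called higher and 17 and 13 of all genes called higher and lower. Genes of the set called higher were 2 without a filter (with Pax6 called lower, 1), 0 without the library block, 1 in DESeq2 and 7 with odd-digit clustering genes, and Pax6 was also the 1 called lower with Scrublet calls removed. All genes called higher and lower were 2 and 1 without the library block, 6 and 3 in DESeq2, 40 and 55 with the stricter cell filter (500 genes, 10% mitochondrial), 95 and 83 with odd-digit genes, 52 and 38 with the tdTomato-negative libraries clustered alone and 7 and 7 over genes kept out of the clustering. Those called lower were 8 at resolution 2.0 and 32 with Scrublet calls removed. The near-zero change of Bcl11b turned positive with RLE scaling (0.020), the stricter filter (0.051) and Scrublet removal (0.043). With each library left out in turn Bcl11b ran between -0.31 and 0.15 and Etv1 between -0.091 and 0.33. At resolution 0.5 the neuroblast-like class held 713 cells and no cluster qualified for this comparison.

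Between neuroblast-like and transit-amplifying-like cells all genes called higher and lower were 486 and 556 without the library block and 404 and 458 over kept-out genes, where fewer genes were tested, and 567 were lower in DESeq2. Pax6 was the 1 of the set called lower at resolution 0.5, with the stricter filter and with the tdTomato-negative libraries alone. Against astrocyte-like cells the kept-out genes gave 625 and 738. Pairs above independence in both libraries fell to 19 without thinning. The causes of these moves were not tested.

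With 1 library left out no residual degrees of freedom remained, so those fits gave values without a test. The 2 libraries and the 90 Prokr2 UMIs in neuroblast-like cells limit what the tests can show.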

Other observations

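Calb2, which encodes calretinin and marks a group of bulb interneurons, had 75 UMIs in 2 of the 228 Meg3-rich cells of library 2, and 51 of them lay in 1 cell. In the Meg3-rich cells of library 1 it had 1 UMI, and in neuroblast-like cells 1 and 8 UMIs in libraries 1 and 2.

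Nr2f1, the gene closest to Pax6 in pattern, was also unevenly held. In neuroblast-like cells it had 31 UMIs in 11 of 58 cells of library 1, with 14 in 1 cell, and 68 UMIs in 44 of 350 cells of library 2, with at most 13 in a cell. In the Meg3-rich cluster it had 5 and 28 UMIs, with at most 1 and 2 per cell. Its levels of 29.4 and 67.4 CPM in the Meg3-rich cluster and 182 and 84.9 CPM in neuroblast-like cells did not pass the test (adjusted p = 0.328 by edgeR).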
